A study of Mus musculus with 9 samples.

Results

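The S100-fused protein genes were examined in the RNA of mouse ear epidermis, where the protein of each gene joins a calcium-binding S100 domain to a long and often repetitive tail. The members were taken by symbol from the deposited count table and are Flg (filaggrin), Flg2 (filaggrin-2), Hrnr (hornerin), Rptn (repetin), Tchh (trichohyalin), Tchhl1 (trichohyalin-like 1) and Crnn (cornulin). All 7 were found among the 52550 genes of the table, each with 1 gene identifier. Epidermal sheets came from ears of C57BL/6 wild type mice aged 8 weeks, in 3 groups of 3 libraries. The VAS + H2O group received Vaseline for 5 days and was gavaged with ddH2O for 10 days. The IMQ + H2O group received imiquimod (IMQ), a TLR7 agonist whose topical use gives psoriasis-like skin inflammation, for 5 days and the same ddH2O gavage. The IMQ + XYF group received imiquimod for 5 days and was gavaged with Xiao-Yin-Fang (XYF), a herbal decoction, at 23.3 mg/g in 200 μl for 10 days. No group received XYF without imiquimod, so the decoction can be compared only within inflamed skin. The study's methods speak of RNA from 2 mice without saying whether this holds for each library, so the p-values measure the spread between these samples.

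In the living epidermis, profilaggrin is stored in the keratohyalin granules of the granular layer. As the cells cornify it is dephosphorylated and cut into filaggrin units that bundle keratin filaments, and these are later broken down to free amino acids that hold water in the stratum corneum. Hornerin and filaggrin-2 are built on the same plan and are found in granules and in the cornified layer. Trichohyalin is best known from the inner root sheath and medulla of the hair follicle, repetin from the cornified envelope, and cornulin from squamous epithelia. Loss-of-function variants of the human filaggrin gene cause ichthyosis vulgaris and predispose to atopic dermatitis.

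Libraries held 30298275 to 64771160 counts. Markers of the epidermis were high in all of them: the summed level of 5 suprabasal markers (Krt1, Krt10, Krt2, Krt77 and Krt78) was between 50340 and 87768 CPM (counts per 1000000 counts of the library, with library sizes scaled by TMM) and that of 6 basal markers between 17169 and 24696 CPM. Of the 9 libraries, 3 stood apart. IMQ + H2O replicate 3 had the lowest levels of Flg, Flg2 and Hrnr and also of loricrin (Lor), at 273 CPM against 483 to 900 CPM in the others, together with the highest S100a8, at 983 CPM. VAS + H2O replicate 2 had the highest summed levels of cartilage (464 CPM), fibroblast (624 CPM) and muscle (265.0 CPM) markers. VAS + H2O replicate 3 had a summed level of inner root sheath genes of 12.5 CPM against 1.05 to 2.76 CPM elsewhere. Cartilage markers also differed between groups, with sums of 194 to 464 CPM with Vaseline, 38.9 to 82.9 CPM with imiquimod and water and 141 to 205 CPM with imiquimod and XYF, and their part in the members' levels was not tested. For members, the value without 1 of these libraries is given where leaving it out changed a call or a level by over 1.5 times. For partner lists, it is given where the number of genes called changed.

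The members lie side by side on chromosome 3, all on the plus strand, within 327 kb of the GRCm38 build (chr3:93144787-93471980). In order they are Crnn (93144787 to 93149819), Flg2 (93197278 to 93221391), Flg (93273523 to 93293686), Hrnr (93319749 to 93333570), Rptn (93393699 to 93399442), Tchh (93442330 to 93449077) and Tchhl1 (93468754 to 93471980). The coding starts below show the S100 part, which begins each protein. Each is the first 60 bases of a coding sequence in GENCODE M21, with the start codon in capitals. Flg2, Hrnr and Flg are shown because the results turn on them, and Tchhl1 because its start is the most distant.
Flg2: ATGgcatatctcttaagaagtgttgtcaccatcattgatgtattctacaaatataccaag
Hrnr: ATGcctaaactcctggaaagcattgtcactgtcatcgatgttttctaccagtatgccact
Flg: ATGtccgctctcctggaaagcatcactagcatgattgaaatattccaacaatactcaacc
Tchhl1: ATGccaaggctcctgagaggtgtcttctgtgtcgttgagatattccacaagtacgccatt

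Over the first 100 codons, translated and aligned in pairs, Flg2 and Hrnr shared 64.0% of residues, which was the highest of the 21 pairs. Rptn and Tchh shared 49.0%, Flg and Hrnr 48.0%, and Flg and Flg2 47.0%. Tchhl1 shared between 26.7% and 35.6% with the other members. Over their whole longest transcripts, no stretch of 50 bases was common to any pair of members.

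The tails of Flg, Flg2 and Hrnr are internal repeats, and this bears on how their reads can be counted. Of all 50-base windows of the longest transcript, 79.2% in Flg, 69.1% in Hrnr and 65.3% in Flg2 occurred more than once in the same transcript. The share was 10.1% in Tchh, 5.49% in Rptn and 0 in Crnn and Tchhl1. The windows with the most copies are shown to make the repeats visible, with 55 copies in Flg2, 17 in Flg and 16 in Hrnr. GENCODE M21 marks no coding sequence on the longest transcripts of Flg and Flg2, from which these windows come.
Flg2: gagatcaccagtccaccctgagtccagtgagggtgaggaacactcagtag
Flg: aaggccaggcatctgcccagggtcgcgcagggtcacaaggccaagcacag
Hrnr: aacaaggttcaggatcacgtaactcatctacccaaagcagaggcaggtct

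No window of 50 bases was shared between the longest transcripts of the members. A read of that length from these transcripts, without mismatches, can thus be ambiguous within Flg, Flg2 or Hrnr but not between them. Exon bases of Flg outside its longest transcript were not compared. The treatment of reads with several positions is not given in the sources used here, and its part in the levels was not tested. Other annotated genes that overlap members had low counts. The antisense lincRNA Gm37245, which spans Hrnr, Rptn and Tchh, had 0 counts in all libraries. Gm37857, at the start of Rptn on the same strand, had at most 7, and the pseudogene Rplp0-ps1 inside Flg had 9 to 117. Whether reads in these overlaps were lost from the members' counts was not tested.

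**Figure D1:**
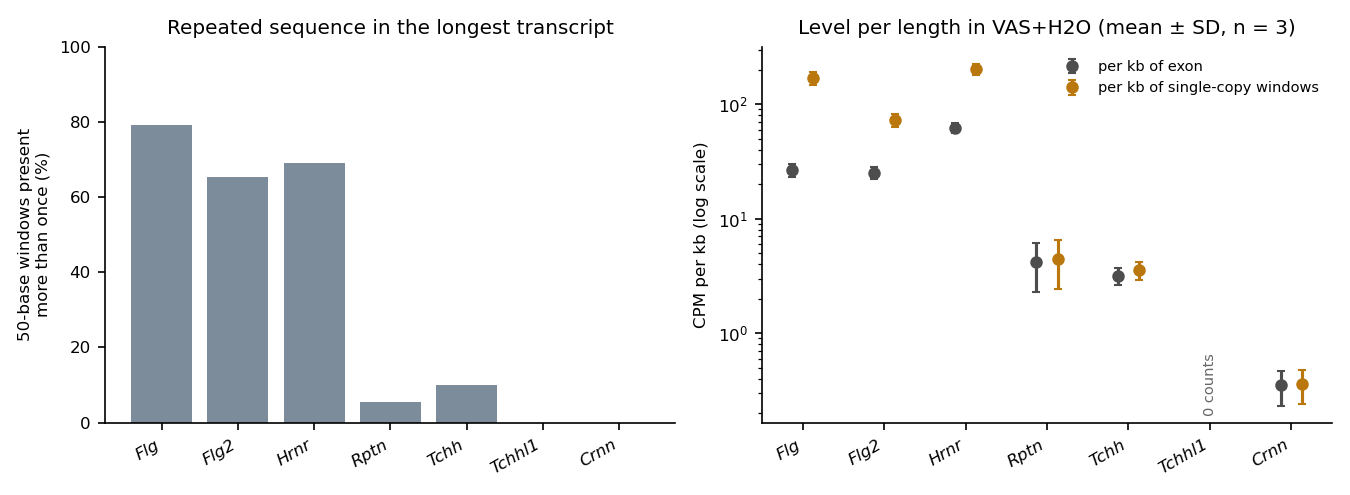
Left, share of 50-base windows of the longest transcript of each member that occur more than once in it (%). Right, level in VAS + H2O as CPM per kb on a log scale (mean ± SD, n = 3), per exon length in grey and per length of single-copy windows in orange; Hrnr stood highest on both scales, at 62.4 and 203 CPM per kb, and Tchhl1 had 0 counts.

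Promoter sequence is shown for the same 3 genes because their levels did not move together (RefSeq, GRCm38.p6, plus strand). The runs are chr3:93197023-93197272 for Flg2, chr3:93273296-93273522 for Flg and chr3:93319499-93319748 for Hrnr, each ending before the annotated start. Capitals mark matches to 3 motifs, AP-1 (TGANTCA, both strands), forkhead (GTAAACA, both strands) and the TATA box (TATAAA, gene strand), and no matches overlap.
Flg2: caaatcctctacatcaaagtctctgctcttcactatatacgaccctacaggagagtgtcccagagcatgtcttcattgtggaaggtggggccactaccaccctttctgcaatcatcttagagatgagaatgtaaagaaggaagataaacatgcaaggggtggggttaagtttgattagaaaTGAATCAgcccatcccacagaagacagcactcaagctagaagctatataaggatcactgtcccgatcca
Flg: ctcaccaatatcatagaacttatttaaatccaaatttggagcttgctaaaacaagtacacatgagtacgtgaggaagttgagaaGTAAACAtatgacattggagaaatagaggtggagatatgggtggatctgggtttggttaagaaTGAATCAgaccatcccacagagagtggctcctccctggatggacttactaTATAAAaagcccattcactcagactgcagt
Hrnr: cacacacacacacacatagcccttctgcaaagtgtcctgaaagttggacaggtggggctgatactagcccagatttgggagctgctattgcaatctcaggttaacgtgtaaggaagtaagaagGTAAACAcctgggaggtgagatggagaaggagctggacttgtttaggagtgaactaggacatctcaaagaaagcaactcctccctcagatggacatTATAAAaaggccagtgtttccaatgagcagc

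The AP-1 letters were found in 5 of the 7 members' 300-base windows, those of Crnn, Flg, Flg2, Rptn and Tchhl1, and in 7.81% of all 32851 promoters. In these 5 the match began between 69 and 103 bases before the RefSeq start. Hrnr and Tchh had no match. The forkhead letters were found in Flg and Hrnr, and in 3.65% of all promoters, and the TATA letters in Crnn, Flg, Hrnr and Rptn, and in 8.32% of all. Flg and Flg2 also shared the 12-base run ccatcccacaga, which in both follows the AP-1 match after 2 bases. These are matches of letters and say nothing about which factors were bound.

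Per length, hornerin was the most abundant member in control epidermis. In VAS + H2O its level was 62.4 ± 6.73 CPM per kb of exon (SD, n = 3), followed by Flg at 26.8 ± 3.53 and Flg2 at 25.1 ± 3.08, which differed by less than their spread. Rptn (4.19 ± 1.91) and Tchh (3.16 ± 0.544) came next and also lay within each other's spread, then Crnn at 0.349 ± 0.116. The gaps between them depend on the length used. When only single-copy windows were taken as length, an alternative chosen after seeing the data, Flg (168 ± 22.1) moved close to Hrnr (203 ± 21.8) and away from Flg2 (72.6 ± 8.92 CPM per kb). These windows come from the longest transcript alone, while the counts are those of the whole gene. For Flg that transcript holds 14497 of 18829 exon bases, and for Flg2 and Hrnr all of them. The part of this choice of length in the Flg shift was not tested.

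Under imiquimod the 3 abundant members took different courses: Flg2 lay below the Vaseline range in all 6 libraries, Hrnr above it in 5 of 6, and Flg on both sides. Since RNA came from whole sheets, fewer granular cells and less RNA per cell cannot be told apart. No member passed the study's rule of an adjusted p of at most 0.05 and a log2 fold change of at least 1 in size in any comparison (edgeR's quasi-likelihood test, Benjamini-Hochberg adjustment over all genes tested). In IMQ + H2O against VAS + H2O, 7.68% of all genes tested passed that rule, and 0 of the 6 members tested. The count at an unadjusted p under 0.05 was also 0. The median log2 fold change of these 6 members was 0.08, beside −0.03 over all genes.

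**Figure D2:**
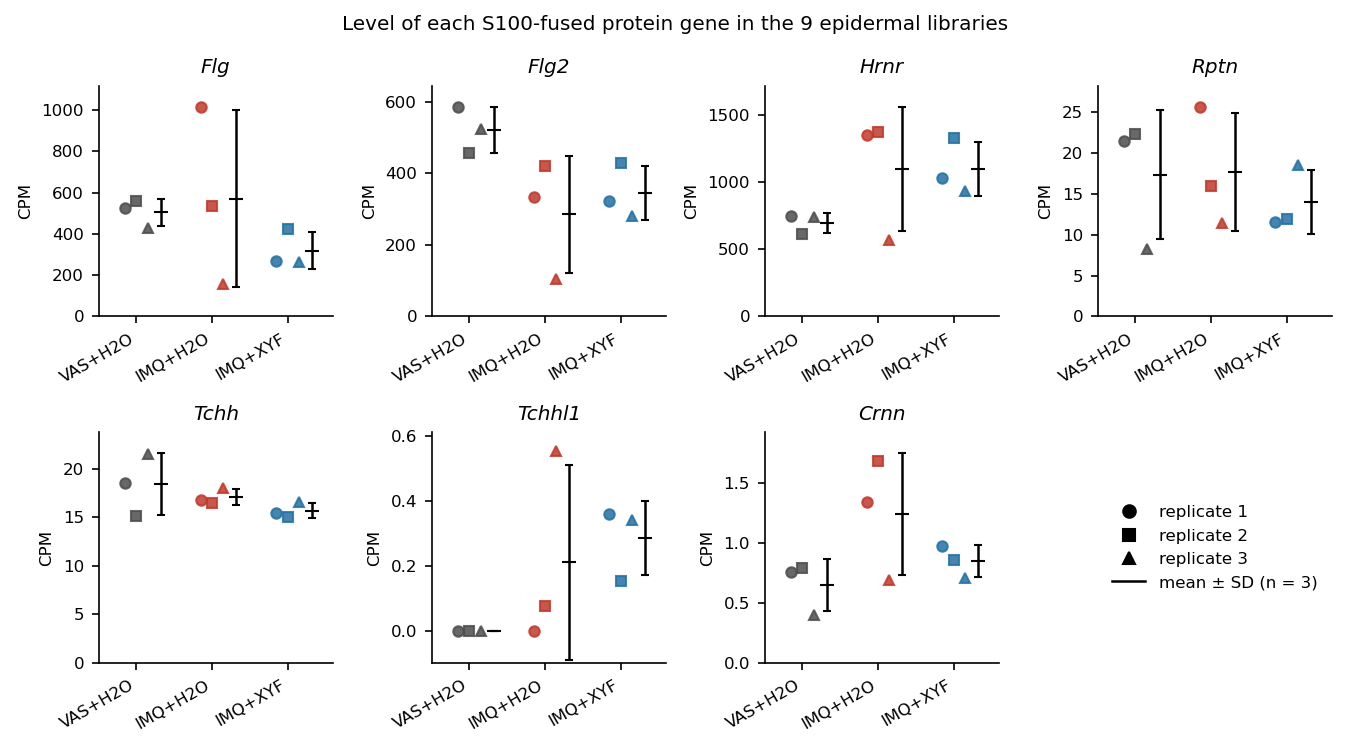
CPM of each member in the 9 libraries by group; marker shape gives the replicate and bars the mean ± SD (n = 3 per group). Flg2 lay below all VAS + H2O libraries in all 6 imiquimod libraries, and the circle, square and triangle of IMQ + H2O are far apart for Flg, at 1015, 537 and 160 CPM.

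Flg2 was at 585, 457 and 524 CPM in the VAS + H2O libraries. It was at 334, 420 and 104 CPM in IMQ + H2O and at 324, 428 and 282 CPM in IMQ + XYF. Every imiquimod library was below every Vaseline library. The log2 fold change in IMQ + H2O was −0.88 ± 0.45 (SE, n = 3 against 3), with an adjusted p of 0.198 in edgeR. Its 95% interval, from −1.95 to 0.18, spans 0, and without IMQ + H2O replicate 3 the value was −0.48, with an adjusted p of 0.086. In IMQ + XYF the log2 fold change was −0.60 ± 0.17, with an adjusted p of 0.0385 in edgeR.

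Hrnr was at 745, 611 and 737 CPM in VAS + H2O. It was at 1353, 1374 and 566 CPM in IMQ + H2O and at 1029, 1324 and 935 CPM in IMQ + XYF. Apart from IMQ + H2O replicate 3, all imiquimod libraries were above all Vaseline libraries. The log2 fold change in IMQ + H2O was 0.64 ± 0.32, with an adjusted p of 0.189 in edgeR, and without that replicate it was 0.95, with an adjusted p of 0.011. In IMQ + XYF it was 0.65 ± 0.15, with an adjusted p of 0.0188.

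Flg, the best known member, was at 524, 560 and 431 CPM in VAS + H2O. In IMQ + H2O it was at 1015, 537 and 160 CPM, so that these libraries lay above, within and below the Vaseline range. In IMQ + XYF it was at 270, 422 and 265 CPM, all below the Vaseline libraries. The log2 fold change in IMQ + H2O was 0.16 ± 0.56, with an adjusted p of 0.861 in edgeR. It was −0.51 without IMQ + H2O replicate 1 and 0.61 without replicate 3, so 1 library sets its sign. In IMQ + XYF against VAS + H2O it was −0.66 ± 0.20, with an adjusted p of 0.0487.

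Between IMQ + XYF and VAS + H2O, Flg2, Flg and Hrnr thus had an adjusted p of at most 0.05 with changes below 2-fold, at 0.661, 0.632 and 1.57 times the control level. This is 3 of the 6 members tested, where 28.7% of all genes tested had an adjusted p that low and 7.64% passed the full rule. In IMQ + H2O against VAS + H2O the share was 22.1% of all genes and 0 of 6 members. A difference between these comparisons was not shown: the direct comparison of the imiquimod groups is below, and both share the VAS + H2O libraries. These values depend on single libraries and on the fit. With 1 library left out, the adjusted p rose above 0.05 for Flg without any 1 of the Vaseline libraries or without IMQ + XYF replicate 1 or 3 (0.0597 to 0.152), for Flg2 without VAS + H2O replicate 1 or 3 or IMQ + XYF replicate 1 or 3 (0.0916 to 0.125), and for Hrnr without VAS + H2O replicate 2 (0.0535). With all 9 libraries in 1 fit, an alternative setting, adjusted p rose to 0.315 for Flg2, 0.378 for Flg and 0.139 for Hrnr. In DESeq2 on the 6 libraries it was lower, at 0.0034 for Flg2, 0.0047 for Flg and 0.00023 for Hrnr. RLE scaling and a filter of at least 10 counts in every library also kept all 3 at or below 0.05 in edgeR.

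Counted by overlap, 1 of the 7 members (Flg2) separated IMQ + H2O from VAS + H2O in all libraries, where 44.5% of the 18492 genes that passed the filter in all 9 libraries did so. In IMQ + XYF against VAS + H2O it was 4 of 7 (Flg2, Flg, Hrnr and Tchhl1), beside 46.8% of genes. Tchhl1 had 0 counts in all Vaseline libraries and passed the filter only through imiquimod libraries. Nothing is read from its separation. The first share is below that background and the second near it, with Tchhl1 counted or not.

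**Figure D3:**
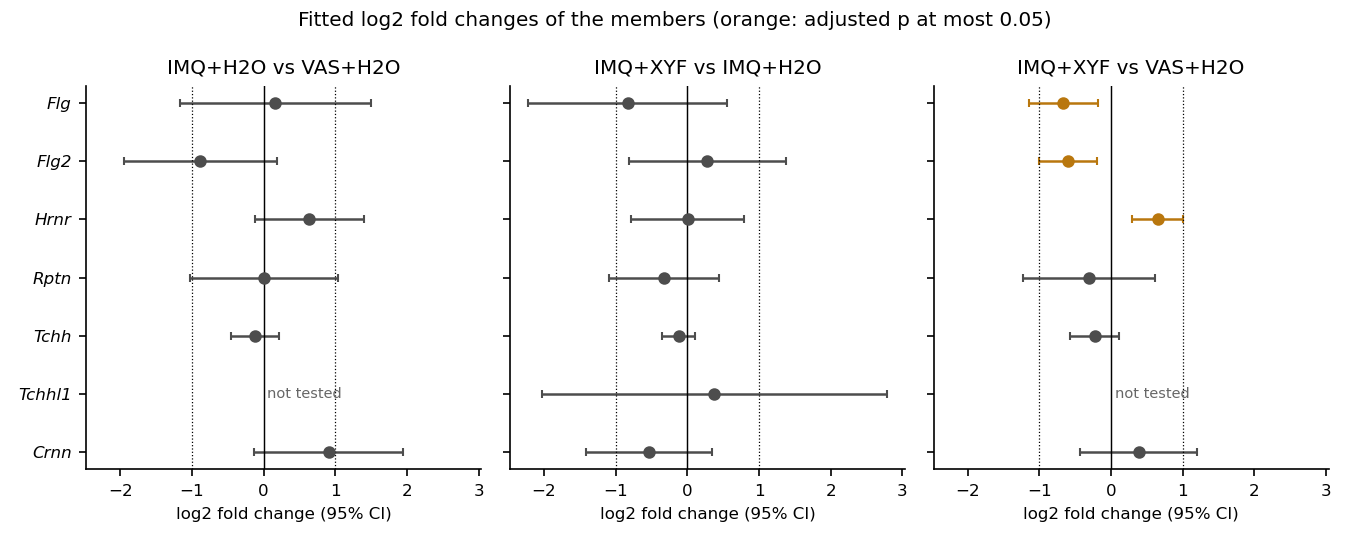
Fitted log2 fold change of each member with its 95% confidence interval in the 3 comparisons (edgeR, 3 libraries per group); dotted lines mark a change of 1 on the log2 scale. Flg2, Flg and Hrnr in IMQ + XYF against VAS + H2O, in orange, are the values with an adjusted p of at most 0.05.

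Within inflamed skin, no difference between XYF and water was detected for any member. In IMQ + XYF against IMQ + H2O, 0 of 7 members passed the rule in edgeR, with 0 at an unadjusted p under 0.05 and every adjusted p at 0.9999, and 0.0281% of all genes tested passed it (5 genes). No member separated the groups, beside 10.7% of genes. The intervals set how much could have been missed. For Tchh the log2 difference was −0.12, with a 95% interval from −0.35 to 0.11, which excludes a 2-fold change. For Hrnr it was 0.00, from −0.78 to 0.79, and for Rptn −0.33, from −1.09 to 0.44. For Flg it was −0.83, from −2.22 to 0.56, but −0.13 without IMQ + H2O replicate 1 and −1.28 without replicate 3. It was 0.28 for Flg2, from −0.82 to 1.37, and for Crnn −0.53, from −1.41 to 0.35. Tchhl1, tested here alone, was at 0.38, from −2.03 to 2.79. Apart from Tchh and Hrnr, the intervals thus include changes of 2-fold.

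The balance between hornerin and filaggrin-2 differed between Vaseline and imiquimod skin in all libraries, and a ratio within a library does not depend on its scaling. With Vaseline the Hrnr to Flg2 count ratio was 1.27, 1.34 and 1.41. With imiquimod it was 4.05, 3.27 and 5.45 under water gavage and 3.17, 3.09 and 3.31 under XYF. All 6 imiquimod libraries lay above all 3 Vaseline libraries, the replicate with low Flg, Flg2 and Hrnr included. How often ratios of other gene pairs separate these groups was not counted. Of single genes, 44.5% separated IMQ + H2O and 46.8% separated IMQ + XYF from VAS + H2O. Group means of the log2 ratio were 0.42 ± 0.07 (SD, n = 3) for Vaseline, 2.06 ± 0.37 for imiquimod with water and 1.67 ± 0.05 for imiquimod with XYF. The difference from VAS + H2O was thus 1.64 on the log2 scale in IMQ + H2O, or 3.11-fold, and 1.44 without IMQ + H2O replicate 3, and it was 1.25 in IMQ + XYF.

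These ratios were chosen after the levels were seen, and 3 libraries against 3 cannot give an exact two-sided permutation p below 0.1, which both comparisons gave (adjusted p = 0.18 over 9 comparisons of 3 ratios). With both imiquimod groups joined, 6 libraries against 3, the exact permutation p was 0.0238, the smallest that design allows, and 0.0714 adjusted over 3 ratios. The ratio in IMQ + XYF was 0.38 lower than in IMQ + H2O on the log2 scale (exact permutation p = 0.2), and the groups overlapped.

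The Flg to Flg2 ratio behaved otherwise. With Vaseline it was 0.895, 1.23 and 0.822. With imiquimod it was 3.04, 1.28 and 1.54 under water gavage and 0.831, 0.986 and 0.939 under XYF. The IMQ + H2O libraries lay above those of both other groups, and the other groups overlapped each other. The log2 difference of IMQ + XYF from IMQ + H2O was −0.99 (exact permutation p = 0.1, adjusted p = 0.18 over the 9 comparisons), and −0.61 without IMQ + H2O replicate 1. The Hrnr to Flg ratio separated IMQ + XYF, at 3.82, 3.14 and 3.53, from VAS + H2O, at 1.42, 1.09 and 1.71, with IMQ + H2O at 1.33, 2.56 and 3.54 spread across both.

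**Figure D4:**
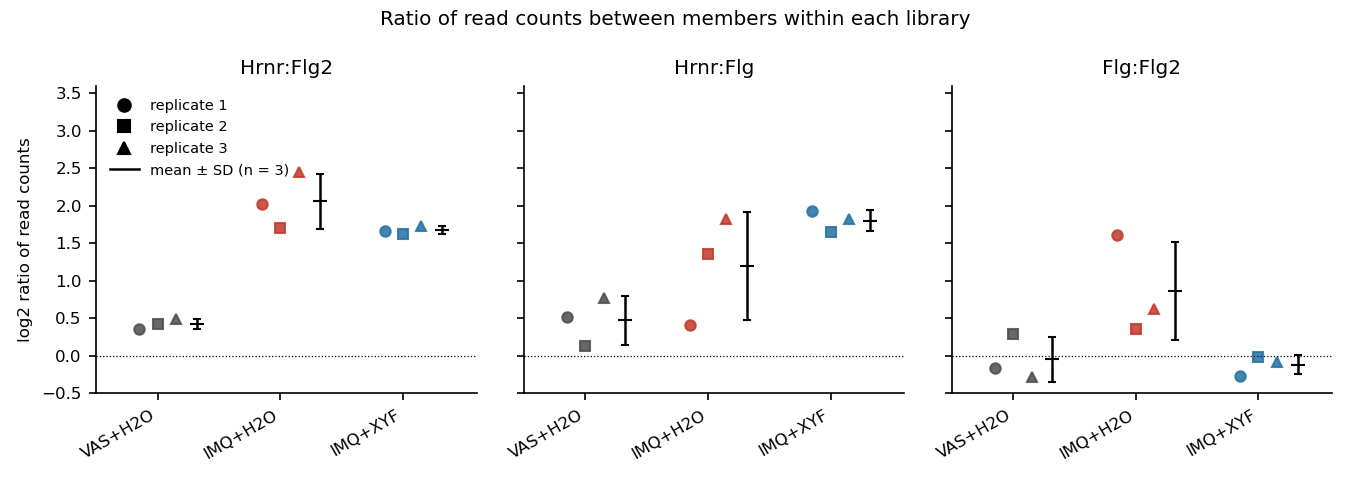
Log2 ratio of read counts between members within each library, for Hrnr to Flg2, Hrnr to Flg and Flg to Flg2; marker shape gives the replicate and bars the mean ± SD (n = 3 per group). For Hrnr to Flg2 the 3 Vaseline libraries sit between 0.35 and 0.49 and the 6 imiquimod libraries between 1.63 and 2.45.

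As shares of the counts of all 7 members, Hrnr took 39.6 ± 3.07% (SD, n = 3) in the Vaseline group, 57.7 ± 8.27% under imiquimod with water and 61.3 ± 1.11% under imiquimod with XYF. In the same order, Flg2 took 29.6 ± 1.88%, 13.998 ± 3.26% and 19.2 ± 0.562%. Flg took 28.8 ± 4.40%, 26.1 ± 9.66% and 17.7 ± 1.43%. The members together took 0.183 ± 0.0148% of a VAS + H2O library, 0.192 ± 0.0945% of an IMQ + H2O library and 0.177 ± 0.0336% of an IMQ + XYF library. The Hrnr and Flg2 shares of all Vaseline libraries lay apart from those of all imiquimod libraries, while the summed share differed between groups by less than the spread between replicates.

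Set against the suprabasal keratins Krt1 and Krt10, which mark cells that have left the basal layer, the summed members did not separate the groups. Group means of the log2 ratio were −3.95 ± 0.18 (SD, n = 3) for Vaseline, −4.28 ± 0.61 for imiquimod with water and −4.16 ± 0.25 for imiquimod with XYF, and libraries of the groups overlapped. Without IMQ + H2O replicate 3 the difference of IMQ + H2O from VAS + H2O went from −0.33 to 0.02. Against Krt1 alone, the groups parted: the ratio was 1.52, 1.70 and 1.25 in VAS + H2O and between 0.259 and 0.945 in the imiquimod libraries. Krt1 itself rose in IMQ + H2O, with a log2 fold change of 1.45 ± 0.21 and an adjusted p of 0.0089 in edgeR. Krt10 had a value of 0.27 ± 0.19 that did not pass.

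Crnn, Rptn and Tchh had no adjusted p of at most 0.05 in the 3 comparisons. Rptn, an envelope precursor, was at 21.5, 22.3 and 8.23 CPM in VAS + H2O, 25.6, 15.9 and 11.5 CPM in IMQ + H2O and 11.6, 11.9 and 18.6 CPM with XYF. The groups overlapped fully, with a log2 fold change in IMQ + H2O of 0.01 ± 0.43. Crnn was at 0.762, 0.789 and 0.402 CPM in VAS + H2O, 1.35, 1.69 and 0.695 CPM in IMQ + H2O and 0.974, 0.864 and 0.713 CPM with XYF. The Crnn change in IMQ + H2O, 0.91 ± 0.44 with an adjusted p of 0.177 in edgeR, was the largest of the 6 members tested and rests on 14 to 65 counts per library.

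Tchh had the steadiest level of the family under imiquimod. It was at 18.5, 15.1 and 21.5 CPM in VAS + H2O, 16.8, 16.5 and 18.0 CPM in IMQ + H2O and 15.4, 15.1 and 16.6 CPM in IMQ + XYF. The spread was 4.63% of the mean in IMQ + H2O and 4.99% in IMQ + XYF, against 42.0% to 75.2% for Flg, Flg2 and Hrnr in IMQ + H2O. Its 95% interval in IMQ + H2O against VAS + H2O, from −0.46 to 0.22 on the log2 scale, excludes a 2-fold change. IMQ + H2O replicate 3, lowest for Flg, Flg2 and Hrnr, was the highest of its group for Tchh.

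The highest Tchh value, in VAS + H2O replicate 3, came with the highest levels of genes of the inner root sheath. There Krt71 was at 3.96 CPM, Krt25 at 3.73, Krt73 at 2.38 and Krt27 at 1.81, against at most 0.484, 0.304, 1.196 and 0.827 CPM in the other 8 libraries. Krt28 (at most 0.657 CPM), Krt74 (0.364) and Krt26 (0.148) did not peak in that library, and Krt72 had 0 counts in all. In the other 8 libraries Tchh stayed between 15.1 and 18.5 CPM with a summed level of these 8 genes of 1.05 to 2.76 CPM. Without VAS + H2O replicate 3 the log2 fold change of Tchh in IMQ + H2O went from −0.12 to 0.04. The part of hair follicle RNA in the Tchh level was not tested.

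Tchhl1 was the only member whose Vaseline libraries were all at 0 counts. It had 0, 3 and 24 counts in IMQ + H2O and 23, 5 and 12 in IMQ + XYF. Every IMQ + XYF library and 2 of the 3 IMQ + H2O libraries thus had reads. A floor of 3 counts in each VAS + H2O library is 0.0802 CPM on average. The mean level was 2.63 times this floor in IMQ + H2O (0.211 ± 0.301 CPM, SD, n = 3) and 3.57 times in IMQ + XYF (0.286 ± 0.114 CPM). The spread between imiquimod libraries does not enter these 2 values, so they are not lower bounds on the change. Without IMQ + H2O replicate 3 the IMQ + H2O mean was 0.039 CPM, below that floor, so the first value rests on 1 library. Tchhl1 did not pass the filter on low counts in either comparison with VAS + H2O, so no test against Vaseline is given.

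Markers of leukocytes did not run alike beside Tchhl1. Csf3r, the receptor for granulocyte colony-stimulating factor, was at 0.17, 0.86 and 38.0 CPM in IMQ + H2O and at 22.9, 1.33 and 6.10 CPM in IMQ + XYF, in the order of the replicates given for Tchhl1. In VAS + H2O it was at 0, 0.09 and 0.09 CPM. Of the 8 leukocyte markers all had counts, and their summed level ranged from 290 to 355 CPM in VAS + H2O, 308 to 452 CPM in IMQ + H2O and 313 to 394 CPM in IMQ + XYF. Lyz2 and Itgam ranked the replicates of each imiquimod group as Tchhl1 did. Lyz2 was at 2.07, 2.16 and 11.02 CPM in IMQ + H2O and at 7.48, 1.82 and 2.25 CPM with XYF. Itgam was at 1.83, 6.19 and 19.29 CPM and at 16.96, 2.005 and 3.33 CPM. Another Itgam identifier had 3.18, 0 and 2.06 CPM and 0, 3.02 and 5.02 CPM, unlike Tchhl1. Ptprc ranked alike in IMQ + H2O only, at 10.23, 16.85 and 22.11 CPM, and had 17.92 to 19.04 CPM in VAS + H2O. Other markers ran differently. Cd3e of T cells had means of 11.3 CPM with Vaseline, 6.89 in IMQ + H2O and 6.96 in IMQ + XYF. Cd74, which made up most of the sum, had 249.7, 247 and 219.8 CPM. In the same order, Cd207 had 29.4, 24.7 and 22.6 CPM and Cxcr2 had 11.4, 60.1 and 57.1 CPM. Csf3r, Lyz2, Itgam and Ptprc were picked from the list after their values were seen. The part of leukocyte RNA in the Tchhl1 counts was not tested.

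The partners of the family were examined as lists. In IMQ + H2O against VAS + H2O, 7.68% of all genes tested passed the rule and 22.1% had an adjusted p of at most 0.05 (edgeR). The counts of each list below are to be read beside these shares. Of 18 genes for profilaggrin processing and its breakdown to natural moisturizing factor, 17 were tested in IMQ + H2O against VAS + H2O, 2 rose, 0 fell and 15 did not pass, with a median log2 fold change of 0.35 beside −0.03 over all genes. Blmh, the bleomycin hydrolase that helps to free amino acids from filaggrin, went from 151 to 313 CPM, with a log2 fold change of 1.04 ± 0.13. Klk14, a trypsin-like protease of the stratum corneum, went from 0.069 to 1.25 CPM, or to 0.619 CPM without IMQ + H2O replicate 3, where its adjusted p was 0.0834. It also lost its call without IMQ + H2O replicate 2 or VAS + H2O replicate 1 or 2, and Blmh without IMQ + H2O replicate 1 (0.98 on the log2 scale) or VAS + H2O replicate 2 (0.96), so that 0 to 2 of the 17 were called. By an adjusted p of at most 0.05 alone, 5 of the 17 were higher and 0 lower in edgeR. Beside Blmh and Klk14 these were Klk7, at 0.85 ± 0.11 with an adjusted p of 0.0074, Bdh1 and St14. Bdh1 was at 0.60 ± 0.11 (adjusted p = 0.0137) and St14 at 0.29 ± 0.08 (0.0444). Genes above that adjusted p included Casp14, at 0.83 ± 0.62 with 0.37, and the retroviral-like protease Asprv1, at 0.28 ± 0.36.

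Transglutaminases, which join these proteins into the cornified envelope, were 5 genes, of which Tgm6 had 0 counts. Of the 4 tested, 3 rose in IMQ + H2O against VAS + H2O, with a median log2 fold change of 1.05. Tgm1 was 1.08 ± 0.09 higher on the log2 scale, Tgm5 1.02 ± 0.11 and Tgm3 1.17 ± 0.24, with adjusted p between 0.0035 and 0.0184 in edgeR. Tgm2 was at 0.77 ± 0.66 and did not pass. Tgm3 was not called without IMQ + H2O replicate 3 (0.92 on the log2 scale) or VAS + H2O replicate 1 or 2, nor Tgm5 without IMQ + H2O replicate 1 (0.96). All 3 that rose stayed close to their IMQ + H2O level under XYF, with log2 differences from −0.18 to −0.10 that did not pass.

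Among 25 other genes tested from a list of the envelope and granular layer, 5 rose, 1 fell and 19 did not pass, with a median of 0.18. Without VAS + H2O replicate 2, 4 rose and 1 fell. By an adjusted p of at most 0.05 alone, 7 of the 25 were higher and 1 lower in edgeR with all libraries. The small proline-rich envelope precursors Sprr2d and Sprr1b rose by 4.31 ± 0.48 and 3.18 ± 0.38 on the log2 scale, and involucrin (Ivl) by 1.103 ± 0.14. Without IMQ + H2O replicate 3, Sprr2d rose by 3.67 and Sprr1b by 2.69, both still called. Lor, the main envelope protein of the granular layer, did not pass, at −0.39 ± 0.37. The only gene of the list that fell was Corin, at −2.03 ± 0.38, a protease best known for activating natriuretic peptides rather than for a part in the envelope. Its levels were 56.0, 93.7 and 45.1 CPM in VAS + H2O and 22.4, 16.5 and 9.65 CPM in IMQ + H2O, and it moved in the same direction as the cartilage markers, whose part was not tested.

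Of 22 transcription factors of keratinocyte differentiation, 1 rose, 0 fell and 21 did not pass, with a median of 0.12. The gene that rose was the nuclear receptor Ppard, at 1.01 ± 0.18. It was below 1 without IMQ + H2O replicate 3 (0.80) or VAS + H2O replicate 3 (0.97), leaving 0 called. By an adjusted p of at most 0.05 alone, 5 of the 22 were higher and 3 lower in edgeR. Of 12 S100 genes tested from the same chromosome region, which hold the S100 domain without a tail, 3 rose and 2 fell. S100a8 and S100a9, the subunits of calprotectin, went from 1.46 to 410 CPM and from 3.66 to 448 CPM. Without IMQ + H2O replicate 3 their means were 123 and 145 CPM, with both still called, and 2 S100 genes rose and 1 fell. Without VAS + H2O replicate 2, 2 S100 genes rose and 1 fell, and without VAS + H2O replicate 3, 2 rose and 2 fell. S100a3, a gene known from the hair cuticle, fell by 1.85 on the log2 scale, with an adjusted p of 0.0058 in edgeR. Between the imiquimod groups, 0 of the 80 genes tested in these 5 lists passed in edgeR, beside 5 of all 17793 genes tested. At an unadjusted p under 0.05 in edgeR there were 5 of the 80, beside 966 of all 17793. In DESeq2, 1 of the genes in these lists passed, Corin, beside 129 of all 17083 genes tested there. Corin was higher with XYF, by 1.32 ± 0.30 on the log2 scale in edgeR.

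**Figure D5:**
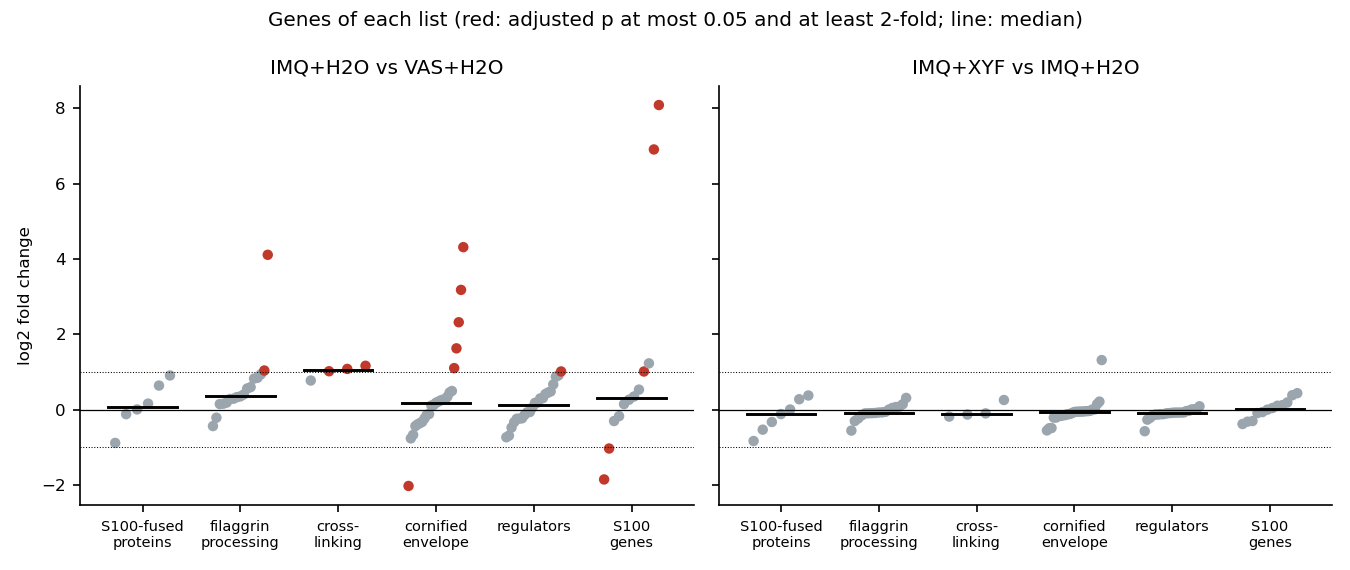
Log2 fold change of every tested gene of each list in IMQ + H2O against VAS + H2O (left) and IMQ + XYF against IMQ + H2O (right); red points have an adjusted p of at most 0.05 and a change of at least 1 in size, and black lines are medians. Red points appear in the 5 partner lists on the left, and in no list on the right.

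By likeness of log2 CPM across the 9 libraries, among 18485 other genes, Flg2 was nearest to 5430427M07Rik (Pearson's r = 0.98), Chd3os and Rgs9. Flg was nearest to Lrrc28 (r = 0.98), Gm37079 and 2010109I03Rik, and Hrnr to Prkch (r = 0.99), Gprin2 and Gm14137. For Tchhl1 they were A530064D06Rik (r = 0.98), Cd300a and Lilrb4a, for Rptn Arpp19 (r = 0.96), Slc16a8 and Manbal, for Tchh Fbxl16 (r = 0.93), Fam161b and Ptpn18, and for Crnn Ccser1 (r = 0.94), Slc16a5 and Trnp1. No gene appeared in 2 of these lists. Among the 3 abundant members r was 0.69 for Flg with Flg2, 0.46 for Flg with Hrnr and 0.28 for Flg2 with Hrnr. Of all 21 pairs of members, the highest was Hrnr with Crnn, at 0.70, and the lowest Flg with Tchhl1, at −0.86. The 9 points share the 3 groups and their library depths, so these values are a description.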

How the data were processed

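RNA was measured by sequencing in 9 epidermal libraries, whose groups were taken from the deposited labels. The authors deposited counts per gene, as whole numbers without normalization. Per their methods, TruSeq libraries were run on a HiSeq instrument, aligned with STAR to GRCm38 with Ensembl annotation, assembled with StringTie and tested with DESeq2. The submitters' notes also name STAR 2.5, Cuffnorm and DESeq 1.22.1. The counting tool and its strand setting are not given in the sources used here. Each pair of groups was fitted on its 6 libraries with edgeR 4.0.16 in R 4.3.3 (filterByExpr, TMM, quasi-likelihood test, Benjamini-Hochberg over all genes tested), and genes with an adjusted p of at most 0.05 and a log2 fold change of at least 1 in size were called. The main tool thus differs from the study's DESeq2 (1.42.0 here), which was an alternative, together with other scaling, filters, a joint fit, a replicate block and leaving out each library. The gene-wise edgeR and DESeq2 tests were tested on simulated data for IMQ + H2O against VAS + H2O. Counting error was not given as intervals, because replicate spread exceeds it.

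The members and lists were chosen with earlier results of these data known. Named partners are the 3 genes of each list with the smallest adjusted p among those called in IMQ + H2O against VAS + H2O, all inner root sheath genes with a count, and for each member the 3 most like genes. Casp14, Asprv1, Klk7, Bdh1, St14, Tgm2, Tgm6, Lor, Krt1, Krt10, Corin, Cd3e, Cd74, Cd207, Csf3r, Cxcr2, Itgam, Lyz2 and Ptprc were named after their values were seen. Counts of partner genes by adjusted p alone were also added after seeing the data. Ratios between members used counts and exact two-sided permutation tests. No p is given for the summed members against keratins, since the sum was formed over the chosen members. Replicate numbers were checked for pairing, and same-numbered libraries deviated together with correlations from −0.133 to 0.105, so no pairing was used.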

Additional observations from a re-analysis of the deposited data

How the results depend on the processing

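No member passed the full rule under DESeq2, RLE scaling, a filter of at least 10 counts, the joint fit or the replicate block. In IMQ + XYF against VAS + H2O the count became 3 by adjusted p alone and 1 (Tchhl1) without a low-count filter, and leaving out 1 library gave 0 to 1, again Tchhl1. Nothing is read from these calls of Tchhl1, which has 0 counts in all Vaseline libraries and enters the test only through the IMQ + XYF libraries. Members with an adjusted p of at most 0.05 in that comparison numbered 3, but 0 with all 9 libraries in 1 fit and 1 with the replicate block, and 1 to 4 with 1 library left out. Without a low-count filter Flg (adjusted p = 0.0637) and Flg2 (0.0536) were no longer among them. In IMQ + H2O against VAS + H2O leaving out 1 library gave 0 to 1, Hrnr without IMQ + H2O replicate 3. The counts by adjusted p under each setting, the single-copy lengths, the ratios between members and the values of partner genes with libraries left out were added after seeing the data. The numbers do not pair the libraries, so the loss under the block is not read as a weaker effect. Log2 changes turned sign as follows. In IMQ + H2O against VAS + H2O, Flg was −0.19 with the replicate block and −0.51 to 0.61 with 1 library left out, Rptn −0.32 to 0.24 and Tchh −0.23 to 0.039. In IMQ + XYF against IMQ + H2O, Hrnr was −0.0014 with DESeq2, −0.0038 with RLE, −0.0012 with at least 10 counts and −0.0019 in the joint fit, and −0.32 to 0.20 with 1 library left out, beside Flg2 at −0.13 to 0.66, Rptn at −0.58 to 0.032 and Tchhl1 at −0.14 to 2.67. None of these had an adjusted p of at most 0.05. The log2 ratio of members to keratins differed by −1.44 (IMQ + H2O) and −1.33 (IMQ + XYF) from VAS + H2O with Krt1 alone. With 1 library left out it ranged from −0.51 to 0.022 in IMQ + H2O against VAS + H2O and from −0.24 to 0.30 in IMQ + XYF against IMQ + H2O. The log2 Flg to Flg2 ratio ranged from −0.19 to 0.10 in IMQ + XYF against VAS + H2O. The log2 Hrnr to Flg2 ratio kept its direction in both comparisons with VAS + H2O, at 1.44 to 1.81 in IMQ + H2O and 1.219 to 1.29 in IMQ + XYF. The cause of these shifts was not tested. Tchhl1 had at most 24 counts in a library and Crnn at most 65.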
